A study of Mus musculus with 4 samples.

Results

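The comparison described here set mouse neural stem cells deleted for Trp53 against control cells, in long-read RNA sequencing on the Nanopore platform with 1 library on each side. Per the labels and the study's methods, primary neural stem cells were grown from the neocortex of gene-floxed embryos and treated with lipid nanoparticles (LNP) for 3 days. The control library, labelled Tut1f/f, came from cells floxed for Tut1 that got empty LNP, whereas the Trp53f/f;Cre-labelled library came from cells floxed for Trp53 that got LNP carrying mRNA for the Cre recombinase. The series held 2 more libraries, both from cells given LNP with Cre mRNA: Tut1f/f;Cre, and one labelled Tut1f/f;Trp53f/f;Cre that is called double-labelled here. The control therefore differed from the Trp53f/f;Cre-labelled library in the floxed gene, in the LNP cargo and in the culture, and these cannot be told apart from loss of Trp53.

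Reads of all isoforms were summed per gene, and a gene was compared when it had 20 or more reads in each of the 2 libraries. That left 7417 of 14949 genes (49.6%). With 1 library a side no test could be run, so each ratio carries an exact 95% interval that covers counting error only, and reads amplified by PCR are not independent molecules. A gene is called higher or lower when its ratio was at least 2-fold and the interval excluded no change. Levels are in CPM, the counts per gene scaled by the TMM method to a common library size, and ratios are log2 of the level in the Trp53f/f;Cre-labelled library over that in Tut1f/f.

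The transcription factor p53, the product of Trp53, is held at a low level by the ubiquitin ligase Mdm2 and accumulates after DNA damage and other stress. It then binds a response element near its target genes, and these stop the cell cycle, repair DNA or start cell death. Several of its targets, Mdm2 among them, act back on p53. In the embryonic cortex p53 is known for removing damaged progenitor cells.

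Trp53 itself (GRCm38 chromosome 11, 69580359 to 69591873, plus strand) was the first gene examined. It had 175 reads in Tut1f/f, with 67 for Tut1f/f;Cre, 10 in the Trp53f/f;Cre-labelled library and 19 in the double-labelled library. Its level fell 15.3-fold from Tut1f/f to the Trp53f/f;Cre-labelled library, a log2 ratio of -3.94 (95% interval -5.02 to -3.03). Both libraries labelled as Trp53-deleted were below both others. Tut1, the terminal uridylyltransferase of U6 snRNA, had 37 reads in Tut1f/f, with 11 for Tut1f/f;Cre, 14 in the Trp53f/f;Cre-labelled library and 27 in the double-labelled library. It was thus lower in the Trp53f/f;Cre-labelled library (log2 ratio -1.21, -2.21 to -0.29), where the label leaves Tut1 intact, and higher in the double-labelled library than in Tut1f/f;Cre (1.33, 0.27 to 2.49), where both labels have it deleted. Per the study's methods the Tut1 deletion takes out an exon and can leave the rest of the transcript, which makes a gene-level count no check of that label. Counts of Tut1 thus did not follow the labels, and every direction below rests on the labels as given.

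The libraries differed in more than the floxed genes. They held between 3936827 and 5125888 reads, of which between 2863392 and 4244467 named a gene, and Tut1f/f was the deepest. Ribosomal RNA genes took 18.7% of gene reads in Tut1f/f and between 5.46% and 9.76% in the other libraries, and mitochondrial rRNA 0.937% against 2.89% to 3.79%. Xist, the RNA of the inactive X chromosome, had 49 reads in the Trp53f/f;Cre-labelled library, 44 in Tut1f/f;Cre and 0 in the other 2. Of the Y-linked genes Ddx3y, Eif2s3y, Kdm5d and Uty, 370 reads were found in Tut1f/f, 264 in the double-labelled library and 0 in the others. A count of 0 allows up to 0.861 CPM in the Trp53f/f;Cre-labelled library and 0.754 CPM in Tut1f/f, at 3 counts. Sex chromosome transcripts thus differed across this comparison, and across the second contrast of Trp53 status in the opposite direction. The labelled cell type was seen in its markers: of 25 genes of radial glia and neural stem cells, 19 were in the table and summed to between 12176 and 13940 CPM in each library. Markers of other cell types were in the table too, at lower sums. They were 13 of 15 astrocyte genes (1084 to 1348 CPM) and 10 of 12 oligodendrocyte lineage genes (503 to 760 CPM). Of neuronal genes 13 of 21 summed to 391 to 541 CPM, and of mesenchymal genes 5 of 11 to 5.53 to 9.76 CPM. Of 11 microglial and blood markers 1 was in the table, with 6 reads in Tut1f/f and 0 in the others, and of 7 endothelial markers none was. In such bulk libraries fewer cells of a type and less RNA per cell cannot be told apart.

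In all, 622 of the 7417 genes (8.39%) were higher and 950 (12.8%) were lower in the Trp53f/f;Cre-labelled library than in Tut1f/f. The median log2 ratio was -0.04, and it was 0.08 when libraries were scaled by their total of gene reads in place of TMM. That scaling gave 786 higher and 756 lower genes, so 51.0% of the called genes were higher in place of 39.6%. A further 1049 genes reached 20 reads in Tut1f/f only and 596 in the Trp53f/f;Cre-labelled library only, and the rule called 682 of the first and 440 of the second. Such genes passed 20 reads through 1 library alone, and they are not counted below unless stated.

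A second contrast of Trp53 status, double-labelled against Tut1f/f;Cre, shared no library with the first and had Cre mRNA on both sides. It was far narrower. Of 6851 genes with 20 or more reads in all 4 libraries, 81 (1.18%) were higher and 49 (0.715%) were lower with Trp53 deleted. The standard deviation of the log2 ratios was 0.40 there, against 0.84 for the same genes in the first comparison. When the Trp53f/f;Cre-labelled library was set against Tut1f/f;Cre, so that both had got Cre mRNA, 36 of these genes (0.525%) were higher and 57 (0.832%) lower.

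The targets of p53 were lower as a group. Of 48 listed targets 47 were in the table and 24 were compared, and 12 of these were lower and none higher, against 12.8% and 8.39% of all genes. Their median log2 ratio was -1.01. In the second contrast 7 of the 24 were lower and none higher, with a median of -0.56, and against Tut1f/f;Cre 9 were lower and none higher, with a median of -0.79. In Tut1f/f;Cre against Tut1f/f their median was -0.06. Summed over all 47 targets the level was 1974 CPM in Tut1f/f, with 1795 for Tut1f/f;Cre, 1057 in the Trp53f/f;Cre-labelled library and 1286 in the double-labelled library.

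For 3 targets the promoter in RefSeq (GRCm38.p6, from 250 bases before to 50 bases after the start) held the canonical p53 response element, which joins a pair of equal half-sites and reads alike on both strands. It was searched with no spacer between the half-sites, their C and G cores kept and up to 2 mismatches elsewhere. The 20 bases of the element are in capitals, 5′ to 3′ on the strand of the gene, and are shown because all 3 genes were lower in the comparison.
Cdkn1a, chr17:29090908-29090967, plus strand, 1 mismatch: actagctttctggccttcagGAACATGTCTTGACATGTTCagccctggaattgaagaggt
Ccng1, chr11:40755442-40755501, minus strand, 1 mismatch: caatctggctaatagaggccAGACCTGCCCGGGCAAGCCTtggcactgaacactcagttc
Ckap2, chr8:22185983-22186042, minus strand, 2 mismatches: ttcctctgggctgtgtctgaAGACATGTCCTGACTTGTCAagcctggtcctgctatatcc
Such a match was found in 107 of 32851 promoters (0.326%), and in 3 of the 40 listed targets that had a promoter in the table. By gene symbol, 29 of 5724 compared genes had one (0.507%), 10 of 754 lower genes (1.33%) and 1 of 457 higher genes (0.219%). A match describes the letters in this window only.

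Among targets that arrest the cell cycle or signal, 8 of 14 compared were lower (57.1%, against 12.8% of all genes). Cdkn1a, which encodes the cyclin-dependent kinase inhibitor p21, stood at 187 CPM in Tut1f/f, with 214 for Tut1f/f;Cre, 49.1 in the Trp53f/f;Cre-labelled library and 74.9 in the double-labelled library. Its log2 ratio was -1.93 (-2.18 to -1.69), or 3.81-fold lower, and -1.52 (-1.74 to -1.29) in the second contrast. The 2 Trp53-deleted libraries lay below both others, with no overlap of the counting intervals. Ccng1, cyclin G1, fell most of the compared targets, from 74.7 to 8.04 CPM (log2 ratio -3.22, -3.83 to -2.66). It was also low in Tut1f/f;Cre, at 20.5 CPM, and in the second contrast its ratio of -0.39 (-0.98 to 0.18) was not called. Psrc1, a microtubule regulator, had a like pattern, with 102, 43.6, 20.1 and 26.1 CPM in Tut1f/f, Tut1f/f;Cre and the Trp53f/f;Cre-labelled and double-labelled libraries.

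Sesn2, a sestrin that restrains mTORC1 under stress, fell from 56.6 to 21.5 CPM (-1.39, -1.79 to -1.01) and from 51.5 to 21.4 CPM in the second contrast (-1.27, -1.72 to -0.84). Gdf15, a secreted stress cytokine of the TGF-beta family, fell from 17.9 to 5.74 CPM (-1.64, -2.43 to -0.90), and Dcxr, a dicarbonyl and xylulose reductase, from 25.9 to 9.76 CPM (-1.41, -2.01 to -0.84). Both were again lower in the second contrast, by -1.26 (-2.08 to -0.48) and -1.44 (-1.98 to -0.93). Abhd4, a lipid hydrolase, and Ckap2, a spindle protein, were lower by log2 ratios of -1.27 and -1.24. Ephx1, the microsomal epoxide hydrolase, went from 116 to 58.0 CPM (interval of the log2 ratio -1.24 to -0.75), just short of 2-fold. The kinases Plk2 (-0.46) and Plk3 (0.59), the metabolic regulator Tigar (0.33), Btg2 (-0.16) and the ubiquitin ligase subunit Fbxw7 (0.84) were not called.

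**Figure D1:**
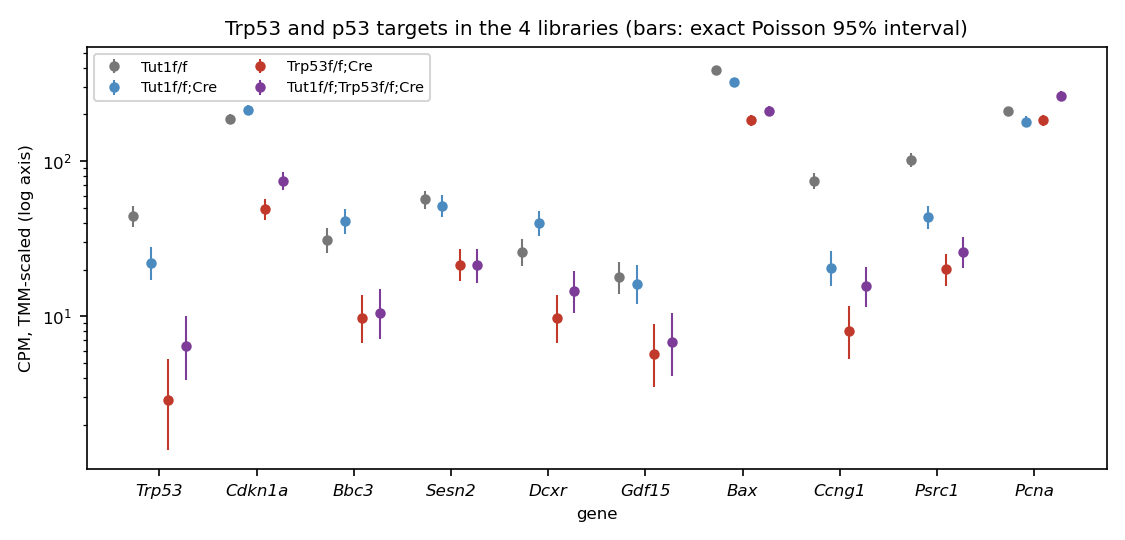
Levels of Trp53 and 9 p53 targets in the 4 libraries, in TMM-scaled CPM on a log axis, with exact Poisson 95% intervals as bars. Cdkn1a, Bbc3, Sesn2, Dcxr and Gdf15 are lower in both libraries labelled as Trp53-deleted than in both others, while Ccng1 and Psrc1 are already lower in Tut1f/f;Cre than in Tut1f/f.

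Of the cell death targets 2 of 4 compared were lower (50%, against 12.8% of all genes). Bbc3, which encodes the BH3-only protein Puma, stood at 30.9 CPM in Tut1f/f, with 40.9 for Tut1f/f;Cre, 9.76 in the Trp53f/f;Cre-labelled library and 10.5 in the double-labelled library. The log2 ratios of its 2 contrasts were -1.66 (-2.26 to -1.11) and -1.96 (-2.58 to -1.38). Bax, the pore-forming effector of the same family, stood at 389, 322, 183 and 210 CPM in the same order. It was lower in the first comparison (-1.09, -1.23 to -0.96) and less than 2-fold apart in the second (-0.61, -0.76 to -0.47). Apaf1, the scaffold of the apoptosome, had -0.71 (-1.13 to -0.29) and was called in the second contrast only, at -1.16 (-1.74 to -0.61). Its reads were mostly of ENSMUST00000160725, a noncoding processed transcript of 511 bases. That isoform took 136 of 140 reads in Tut1f/f and 73 of 75 in the Trp53f/f;Cre-labelled library, so these ratios hardly measure coding Apaf1. Siva1 had a log2 ratio of -0.02 (-0.19 to 0.15).

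Of 6 compared targets of DNA repair and replication stress 2 were lower (33.3%, against 12.8% of all genes), with a median of 0.07. Against Tut1f/f;Cre their median was -0.49. Aen, an apoptosis-enhancing nuclease, and Ercc5, an endonuclease of nucleotide excision repair, were lower, by -1.16 (-1.60 to -0.74) and -1.02 (-1.81 to -0.27). Pcna, the replication clamp, stood at 209 and 183 CPM (-0.19, -0.34 to -0.04). Polk, a translesion polymerase, had 12.6 CPM in Tut1f/f, with 49.9 for Tut1f/f;Cre, 18.7 in the Trp53f/f;Cre-labelled library and 23.7 in the double-labelled library. It was therefore not called against Tut1f/f (0.57, 0.02 to 1.13) and lower in the second contrast (-1.07, -1.50 to -0.65). The rest, Xpc and Rrm2b, had log2 ratios of 0.70 and 0.33.

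The filter left out 23 targets of the table, 12 of them because they had 20 or more reads in Tut1f/f only. The rule called 11 of these 12 lower, but it called 65.0% of all 1049 genes that passed in Tut1f/f only, so nothing is read from that count. Mdm2 had 60 reads in Tut1f/f, with 29 for Tut1f/f;Cre, and 12 in each of the other 2. Pmaip1, which encodes Noxa, had 40, 18, 1 and 1. Eda2r, a death receptor, had 96, 41, 7 and 17, and Fas, another, had 32, 33, 7 and 6. Phlda3, an inhibitor of Akt, had 129 reads in Tut1f/f and between 8 and 14 in each library with Cre mRNA. Polh, a translesion polymerase, had 53 reads in Tut1f/f, with 8 for Tut1f/f;Cre, 9 in the Trp53f/f;Cre-labelled library and 29 in the double-labelled library, and Sesn1 had 59, 5, 16 and 21. Gadd45a, a stress sensor of the cell cycle, was the 1 target with 20 reads only in the Trp53f/f;Cre-labelled library, at 32 reads against 18 (log2 ratio 1.02, 0.14 to 1.94). The other 10 targets had under 20 reads in both.

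**Figure D2:**
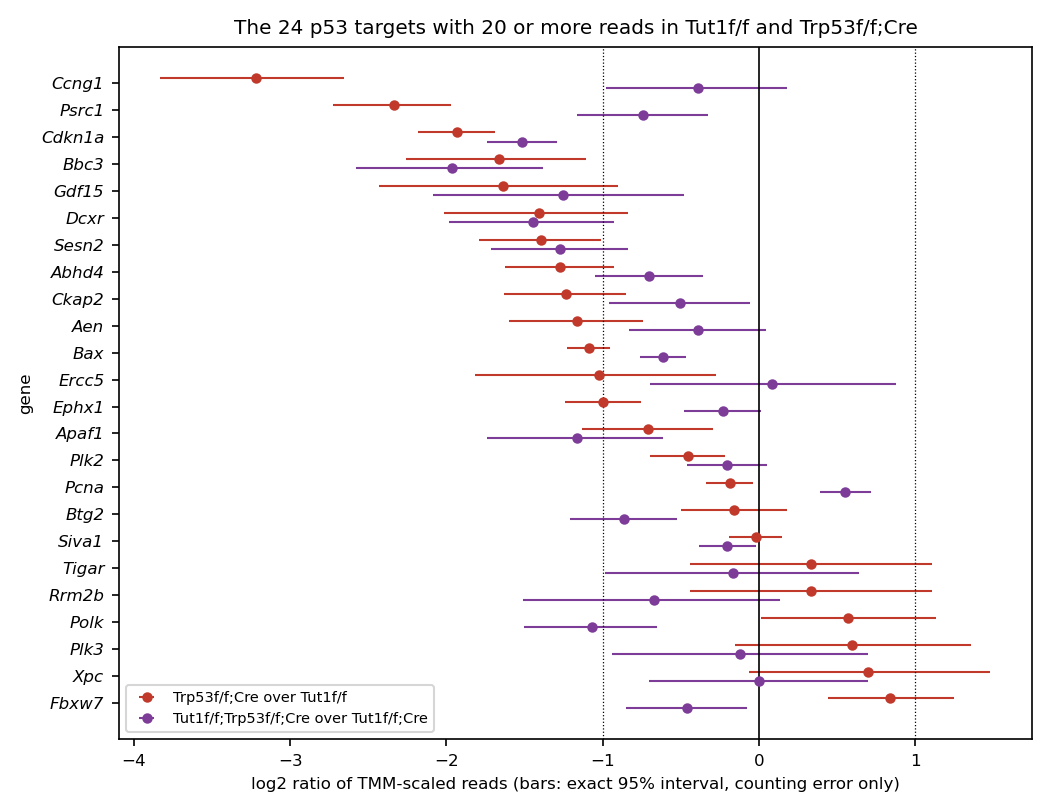
Log2 ratios of the 24 compared p53 targets, for the Trp53f/f;Cre-labelled library over Tut1f/f (red) and for the double-labelled library over Tut1f/f;Cre (purple), with exact 95% intervals of counting error as bars and dotted lines at 2-fold. In the first comparison 12 targets are called lower, with Ephx1 just short of the dotted line, and 7 are called lower in the second.

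Regulators of p53 did not move one way. Of 21 listed, 18 were in the table and 11 were compared: 4 were higher (36.4%, against 8.39% of all genes) and 3 lower (27.3%, against 12.8%). Crebbp, an acetyltransferase and coactivator, rose from 26.9 to 127 CPM (2.24, 1.94 to 2.56). Hipk2, a kinase that phosphorylates p53, Sirt1, a deacetylase, and Usp7, a deubiquitinase of p53 and Mdm2, had log2 ratios of 1.19, 1.25 and 1.02. The acetyltransferase Kat5 was lower by -1.95 (-2.73 to -1.23), the ubiquitin ligase Rchy1 by -1.06 and Cdkn2a, which encodes p16 and Arf, by -1.03. Mdm4, the partner of Mdm2, had 57 and 66 reads (0.40, -0.13 to 0.94). None of the regulators with 20 reads in all 4 libraries was called in the second contrast, and Crebbp had -0.23 there.

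Few genes fell in both contrasts of Trp53 status. Among the 6851 genes with 20 reads in all 4 libraries, 865 were lower in the first comparison and 49 in the second, and 16 were lower in both, which is 1.85% of the first list and 32.7% of the second. Over all 6851 genes 12.6% were lower in the first comparison and 0.715% in the second. Of the 16, 5 were listed p53 targets: Cdkn1a, Bbc3, Sesn2, Dcxr and Gdf15. The other protein-coding genes included Ak1, an adenylate kinase, which went from 56.8 to 6.31 CPM (-3.17, -3.87 to -2.54) and from 27.7 to 9.49 CPM in the second contrast (-1.55, -2.22 to -0.91). H2afj, a replacement histone H2A, had -3.27 (-3.66 to -2.91) and -1.54 (-2.06 to -1.04). Ddit4l, an inhibitor of mTORC1 related to Redd1, had -1.28 and -1.11. Apoe, the lipid carrier of astrocytes, had -1.99 and -1.17, and Chrna4, a nicotinic receptor subunit, -1.04 and -1.43.

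The remaining genes lower in both contrasts were Lars2, the mitochondrial leucyl-tRNA synthetase, at 735, 163, 157 and 80.3 CPM in Tut1f/f, Tut1f/f;Cre and the Trp53f/f;Cre-labelled and double-labelled libraries, together with Mir703, Gm26384, Gm11478, Gm15536 and Gm10247. In these the first library with Cre mRNA was already low: Mir703 had 623 reads in Tut1f/f, with 199 for Tut1f/f;Cre, 192 in the Trp53f/f;Cre-labelled library and 81 in the double-labelled library. The share of ribosomal RNA in these libraries, listed in that order, was 18.7%, 9.76%, 8.91% and 5.46% of gene reads. Not every gene descended with it at each step: Gm26384 had 75.9 CPM in Tut1f/f;Cre and 77.2 in the Trp53f/f;Cre-labelled library. The part of ribosomal RNA in these falls was not tested.

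Of 604 genes higher in the first comparison, 1 was also among the 81 higher in the second, which is 0.166% and 1.23% of the lists. It was Rpl3-ps1, a processed pseudogene of the ribosomal protein gene Rpl3 on the X chromosome. It had 823 reads in Tut1f/f, with 475 for Tut1f/f;Cre, 4457 in the Trp53f/f;Cre-labelled library and 4753 in the double-labelled library, so that both libraries from Trp53-floxed cells were high. Rpl3 itself went the other way, with 10994, 6566, 3595 and 4539 reads. Because the copies are nearly identical, their separate counts are uncertain. Summed, they stood at 2971, 2325, 2311 and 3149 CPM.

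More genes went opposite ways than the same way. Of the 865 genes lower in the first comparison 58 were higher in the second, 6.71% of that list and 71.6% of the 81 genes higher in the second. Over all 6851 genes 1.18% were higher in the second and 12.6% lower in the first. These included the lipid synthesis genes Scd2, Hmgcs1 and Acly. Of the 604 higher genes 1 was lower in the second.

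**Figure D3:**
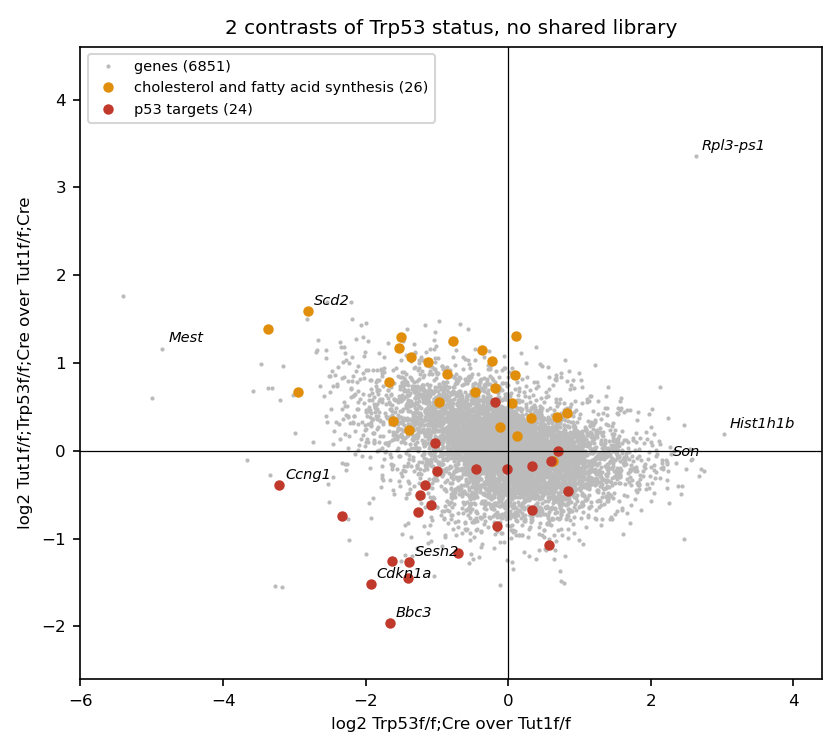
Log2 ratios of 6851 genes in 2 contrasts of Trp53 status that share no library: the Trp53f/f;Cre-labelled library over Tut1f/f (x axis) against the double-labelled library over Tut1f/f;Cre (y axis), with 1 grey point per gene, 24 p53 targets in red and 26 genes of cholesterol and fatty acid synthesis in orange. Cdkn1a, Bbc3 and Sesn2 lie low on both axes, Rpl3-ps1 high on both, and Scd2 and Mest lie to the left but above zero.

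Outside the lists, the named genes that fell began with Gm47283, a gene annotated on the Y chromosome, which went from 413 CPM in Tut1f/f to 9.76 (log2 ratio -5.40, -5.94 to -4.92). It had 6.60 CPM in Tut1f/f;Cre and 22.4 in the double-labelled library. Acsbg1, an acyl-CoA synthetase of brain, fell from 145 to 12.1 CPM (-3.58), Ddb1, the adaptor of the Cul4 ubiquitin ligase, from 82.5 to 7.46 CPM (-3.47), and Prkar1a, a regulatory subunit of protein kinase A, from 169 to 16.9 CPM (-3.32). Ckb, brain creatine kinase, was abundant and fell from 9662 to 1802 CPM (-2.42, -2.46 to -2.38). In each of these all 3 libraries with Cre mRNA lay below Tut1f/f, and Ddb1 alone of the 5 was also called lower against Tut1f/f;Cre (-1.06). Bola3, Pgls, Atp1b2, Serp1, Hspbp1, Azin1, Adgrg1 and Elovl5 were the others named there, with log2 ratios between -3.34 and -2.56.

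Outside the lists and leaving aside the histone genes given next, the genes that rose included Sap30 (2.68, 2.14 to 3.26), a subunit of the Sin3 deacetylase complex, and Tet1 (2.70, 2.24 to 3.19), a 5-methylcytosine dioxygenase, which went from 11.3 to 73.5 CPM. Syne2, the giant nuclear envelope protein nesprin-2, went from 15.6 to 87.8 CPM (2.49). Eif3f, Btg1, Chd6, Cep295, Ccdc88a, Gtf2a1, Ubap2 and Vav3 had log2 ratios between 2.12 and 2.47. Most of these were also high in the other libraries with Cre mRNA: Tet1 had 66.4 CPM in Tut1f/f;Cre and 57.3 in the double-labelled library. Sap30 had 8.30 CPM in Tut1f/f, with 26.1 for Tut1f/f;Cre, 53.1 in the Trp53f/f;Cre-labelled library and 21.4 in the double-labelled one, and was called higher against Tut1f/f;Cre too (1.03).

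The histone genes were a group chosen after their values were seen. Hist1h1b, a linker histone, rose from 72.9 to 592 CPM (3.02, 2.84 to 3.20) and stood at 562 and 640 CPM in the other libraries with Cre mRNA. Of 12 compared replication-dependent histone genes 5 were higher (41.7%) and 1, Hist3h2a, was lower (8.33%), beside 8.39% and 12.8% of all genes. The higher ones were Hist1h1b, Hist1h4d, Hist2h2aa1, Hist2h2ac and Hist1h2ae, with log2 ratios from 1.53 to 3.02. None was called in the second contrast.

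Of 28 compared genes of cholesterol and fatty acid synthesis 12 were lower (42.9%, against 12.8% of all genes), 16 were not called and none was higher, with a median log2 ratio of -0.82. Acly, which makes cytosolic acetyl-CoA, fell from 175 to 16.9 CPM (-3.37, -3.78 to -2.99), the desaturases Scd2 and Fads2 by -2.81 and -2.95, and the sterol genes Mvd, Hmgcs1 and Insig1 by -2.53, -1.53 and -2.94. In the second contrast, of 26 genes with 20 reads in all 4 libraries 10 were higher and none lower, against 1.18% of all genes, with a median of 0.75. Scd2 stood at 458 CPM in Tut1f/f, with 65.7 for Tut1f/f;Cre, 65.1 in the Trp53f/f;Cre-labelled library and 198 in the double-labelled library, so the Cre-treated libraries were all below Tut1f/f. The median of the same genes in the Trp53f/f;Cre-labelled library over Tut1f/f;Cre was 0.29.

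The integrated stress response, in which the factor Atf4 induces genes of amino acid supply, had 8 of 18 compared genes lower (44.4%) and 2 higher (11.1%). Of all genes 12.8% were lower and 8.39% higher. Phgdh and Shmt2, enzymes of serine and glycine synthesis, were lower by -2.12 and -1.56, and the tRNA synthetases Aars and Wars by -2.50 and -2.27. Slc7a5, an amino acid transporter, was higher by 1.21. Sesn2 is both in this list and among the p53 targets. In the second contrast 4 of 14 genes were higher and 1, Sesn2, lower, against 1.18% and 0.715% of all genes. Of 22 compared endoplasmic reticulum chaperones and their regulators 5 were lower (22.7%) and 1, the sensor Atf6 (1.14), was higher, again beside 12.8% and 8.39% of all genes. P4hb and Hspa5, the abundant chaperone BiP, had -1.80 and -1.42. Among 19 heat shock proteins 4 were lower (21.1%) and 1 higher (5.26%), where Cct2, Cct3 and Cct5 of the chaperonin fell by -1.41, -1.69 and -1.01 and Hspa4 rose by 1.28. In Tut1f/f;Cre, P4hb stood at 72.6 CPM and Hspa5 at 81.9, beside 73.2 and 77.8 in the Trp53f/f;Cre-labelled library. Hspa4 had 186 and 178 CPM there. Of chaperone and heat shock genes with 20 reads in all 4 libraries, none was called against Tut1f/f;Cre or in the second contrast.

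The tubulins, which build microtubules, had 6 of 9 compared genes lower (66.7%) and none higher, against 12.8% and 8.39% of all genes. Tuba1a stood at 3555 CPM in Tut1f/f, with 1613 for Tut1f/f;Cre, 1399 in the Trp53f/f;Cre-labelled library and 2625 in the double-labelled library (first log2 ratio -1.35, -1.39 to -1.30). Tuba1b, Tubb2a, Tubb4b, Tubb6 and Tubg1 had log2 ratios between -1.86 and -1.25. These genes share much sequence, so their separate counts are uncertain. A list of glycolytic enzymes with some hypoxia-induced genes had 4 of 25 lower (16%) and 2 higher (8%), near the shares of all genes. Of the enzymes, Pkm, pyruvate kinase, fell from 1262 to 359 CPM (-1.81), Pfkl and Pgam1 had -1.94 and -1.54, and the hexokinase Hk2 rose by 1.35. The other 2 called genes are not glycolytic: P4ha1, a subunit of collagen prolyl hydroxylase, was lower (-1.56), and the growth factor Vegfa was higher (interval of the log2 ratio 0.48 to 1.54). Of 25 lysosomal and endosomal genes 8 were lower (32%, against 12.8% of all genes) and none higher. The lower ones included Psap, the precursor of the saposins, at -2.17. Against Tut1f/f;Cre no gene of the tubulin, glycolysis and hypoxia or lysosome lists was called.

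**Figure D4:**
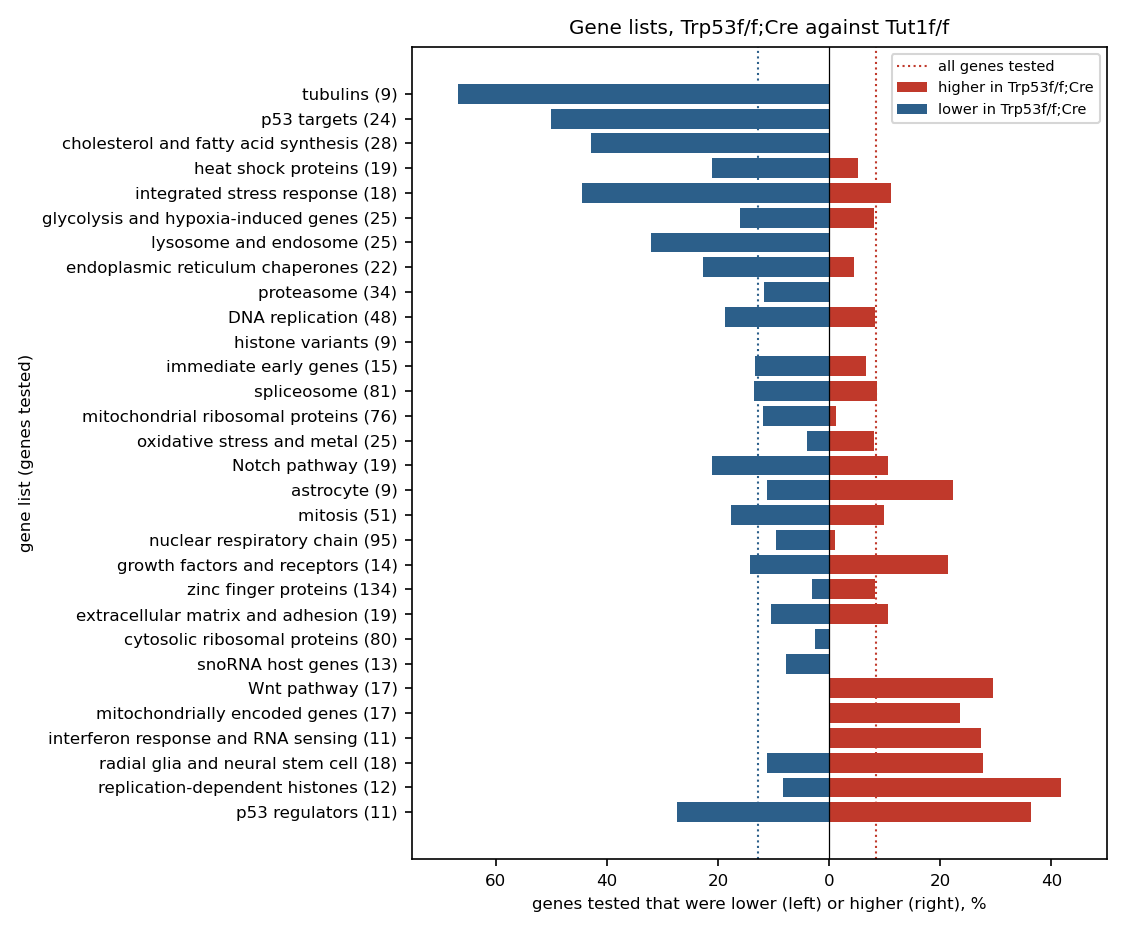
Share of compared genes in each list of 9 or more that were lower (blue, to the left) or higher (red, to the right) in the Trp53f/f;Cre-labelled library than in Tut1f/f, in percent, with the number compared in brackets and dotted lines at the shares over all genes (12.8% lower, 8.39% higher). Tubulins, p53 targets, the integrated stress response and lipid synthesis reach furthest to the left.

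Of 48 compared genes of DNA replication 9 were lower (18.8%) and 4 higher (8.33%), and of 51 genes of mitosis 9 were lower (17.6%) and 5 higher (9.80%), near the 12.8% and 8.39% of all genes. Rrm2 and Rrm1, subunits of ribonucleotide reductase, had log2 ratios of -1.46 and -1.32, Cdk4 had -1.34 and Uhrf1, which guides maintenance methylation, -2.55. In mitosis Aurkb and Cdc25c had -1.82 and -2.30, whereas the proliferation marker Mki67 rose from 58.6 to 235 CPM (interval of the log2 ratio 1.79 to 2.22), and Aspm and Cenpf had 1.53 and 1.35. The medians of the 2 lists were -0.20 and 0.05. In the second contrast 1 gene of DNA replication and 2 of mitosis were called, all higher. In Tut1f/f;Cre, Mki67 stood at 192 CPM, beside 235 in the Trp53f/f;Cre-labelled library, Rrm2 at 166 beside 142 and Aurkb at 25.4 beside 27.3. Of genes with 20 reads in all 4 libraries, none of DNA replication was called against Tut1f/f;Cre, and 2 of mitosis were higher.

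Of 18 compared genes of radial glia and neural stem cells 5 were higher (27.8%) and 2 lower (11.1%), with a median of 0.66. Hes1, the Notch effector that holds progenitors undifferentiated, rose from 149 to 455 CPM (1.61, 1.47 to 1.75), and Sox9, Nes and Emx2 had 1.28, 1.05 and 1.45. Vim, an intermediate filament, and Tnc, a matrix glycoprotein, had -1.03 each. Levels in Tut1f/f;Cre were close to those in the Trp53f/f;Cre-labelled library, with 500 CPM for Hes1. Of 17 compared Wnt genes 5 were higher (29.4%, against 8.39% of all genes) and none lower: the receptors Fzd1 (2.18) and Lrp6 (1.69), Apc (2.11) and Gsk3b (1.28) of the destruction complex, and the nuclear factor Tcf7l2 (1.53). Over 14 Wnt genes with 20 reads in all 4 libraries the median was 0.38 in Tut1f/f;Cre over Tut1f/f and 0.08 in the Trp53f/f;Cre-labelled library over Tut1f/f;Cre, where none was called.

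In the Notch pathway 2 of 19 were higher (10.5%) and 4 lower (21.1%), beside 8.39% and 12.8% of all genes. Jag1, a ligand, had 1.25, while Ncstn and Aph1a, parts of the secretase that cleaves the receptor, had -2.11 and -1.79. Of 9 compared astrocyte genes Sparcl1 and Sox9 were higher (22.2%) and Apoe lower (11.1%). In the oligodendrocyte list Olig2 was higher (1.16) and Cnp lower (-3.67), of 6 compared, and of 5 neuronal genes none was called. Of 14 growth factor and receptor genes 3 were higher (21.4%) and 2 lower (14.3%), with Igf1r, Igfbp2 and Igfbp5 at 2.07, 1.72 and 1.71 and the targets of FGF signalling Etv5 and Dusp6 at -1.88 and -1.84. In the imprinted list Mest fell from 1218 to 42.2 CPM (-4.85, -5.10 to -4.61), with 36.3 CPM in Tut1f/f;Cre, and Sgce fell while Peg3 and Igf2r rose. Among 11 interferon genes Bst2, Eif2ak2 and Ifitm2 were higher (27.3%), by 1.16, 1.01 and 1.04.

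Of 80 cytosolic ribosomal protein genes 2 were lower (2.5%), Rpl3 and Rps2, and none higher, under the 12.8% and 8.39% of all genes. Their median was 0.32. Summed with its nearly identical pseudogene Rpl3-ps1, Rpl3 had a log2 ratio of -0.36 (-0.40 to -0.32), short of 2-fold. Of 13 compared snoRNA host genes 1, Snhg15 (-1.09), was lower (7.69%). The mitochondrially encoded genes had 4 of 17 higher (23.5%), among them the rRNA mt-Rnr2 (1.84) and mt-Nd5 (1.03), and none lower. Of 95 nuclear genes of the respiratory chain 9 were lower (9.47%) and 1 higher (1.05%), both under the 12.8% and 8.39% of all genes. Of the lower ones Uqcrfs1, the Rieske protein, went from 913 reads to 25 (-5.00, -5.64 to -4.43), and Cox5a had -2.44. Of 76 mitochondrial ribosomal proteins 9 were lower and 1 higher, and of 34 proteasome subunits 4 were lower and none higher, 11.8% lower in each list and thus near the share of all genes. Of 134 Zfp genes 11 were higher (8.21%) and 4 lower (2.99%).

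The extracellular matrix list had 2 of 19 higher and 2 lower (10.5% each). The oxidative stress and metal list had 2 of 25 higher (8%) and 1 lower (4%). Of 15 immediate early genes 1 was higher (6.67%) and 2 lower (13.3%), beside 8.39% and 12.8% of all genes. Of 9 compared genes in the list of histone variants none was called. That list did not hold H2afj, the replacement histone given above as lower in both contrasts. Among 81 compared spliceosomal genes 7 were higher (8.64%) and 11 lower (13.6%), as in all genes (8.39% and 12.8%). Of those called, Son, a large nuclear speckle protein, had 180 CPM in Tut1f/f and 839 in the Trp53f/f;Cre-labelled library (2.22, 2.10 to 2.34), while the core factors Prpf19 and Eftud2 had -3.37 and -3.16 and Snrpb, an Sm protein, -2.17. Malat1, a long noncoding RNA of nuclear speckles, rose from 13.8 to 92.7 CPM (2.74, 2.33 to 3.18) and had 104 CPM in Tut1f/f;Cre.

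By the longest annotated transcript, the genes that rose were longer than those that fell. That transcript (GENCODE M21) had a median of 5316 bases and 15 exons in higher genes, 2691 bases and 8 exons in lower genes, and 3096 bases and 7 exons in the rest. In the quintile of genes with the longest transcripts 23.3% were higher and 4.72% lower. In the quintile with the shortest 2.83% were higher and 10.2% lower, and the next quintile held most lower genes, at 21.5%. The median log2 ratio by quintile of length ran -0.13, -0.38, -0.17, 0.09 and 0.47, and in the second contrast 0.09, 0.14, 0.04, -0.03 and -0.11. When a gene was placed by the annotated transcript with the most reads, the medians ran 0.23, -0.35, -0.42, -0.14 and 0.16. By that transcript 8.24% of the longest quintile were higher and 7.55% lower, with 11.4% higher and 4.39% lower in the shortest. The relation to length depended on which transcript was used, and in neither case did the medians rise at every step. The median GC content was 46.9% in higher and 50.3% in lower genes. From the quintile of lowest to that of highest GC content, the share of higher genes went from 11.6% to 5.12% and that of lower genes from 9.78% to 15.2%.

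The choice among a gene's isoforms differed too. The share of an isoform in its gene's reads was compared for genes with 2 or more isoforms, and called at a difference of 10 percentage points or more with Newcombe's 95% interval excluding 0. Of 18694 isoforms of 6074 genes, 1287 (6.88%) had a higher share in the Trp53f/f;Cre-labelled library and 1385 (7.41%) a lower share, and 1599 genes (26.3%) had at least 1 of them. Genes called at the gene level had such an isoform in 31.5% (higher) and 34.8% (lower) of cases, and the others in 24.2%.

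Isoforms annotated with a retained intron gained share. Of 1358 tested, 262 (19.3%) were higher and 46 (3.39%) lower, and the median difference was 2.01 points. Of 6642 protein-coding isoforms 454 (6.84%) were higher and 735 (11.1%) lower. Over the protein-coding genes compared, retained intron isoforms took 1.16% of reads in Tut1f/f, with 1.83% for Tut1f/f;Cre, 1.72% in the Trp53f/f;Cre-labelled library and 1.67% in the double-labelled library. In the second contrast 20 of 1175 retained intron isoforms were higher and 39 lower, against 1.86% and 2.08% of 15662 isoforms of all kinds. The 3 libraries with Cre mRNA were again close to each other and apart from Tut1f/f.

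**Figure D5:**
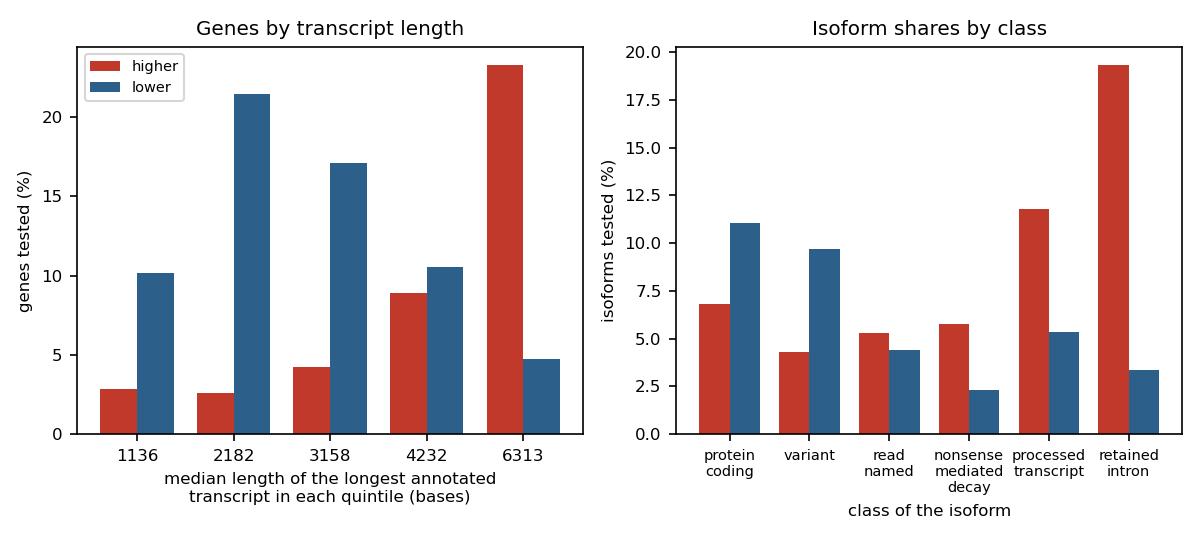
Left, percent of compared genes that were higher (red) or lower (blue) in the Trp53f/f;Cre-labelled library than in Tut1f/f, by quintile of the length of the longest annotated transcript, with the median length in bases of each quintile on the x axis. Right, percent of tested isoforms whose share of gene reads was higher or lower by 10 points or more, by class. The longest genes by that transcript have 23.3% higher, and retained intron isoforms 19.3% higher against 3.39% lower.

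The annotated isoform that gained most was ENSMUST00000213275 of Zfp266, a processed transcript of 679 bases, from 2 of 75 reads (2.67%) to 64 of 82 (78.0%), a difference of 75.4 points (63.3 to 83.2). The protein-coding ENSMUST00000174462 of the same gene went from 49.3% to 0 of 82 reads, where Wilson's interval reaches 4.48%. In Naa40, an N-terminal acetyltransferase of histones, the retained intron isoform ENSMUST00000235323 rose from 27.5% to 94.4% as the protein-coding ENSMUST00000025675 went from 70.6% to 5.56%. Its share was 90.1% in Tut1f/f;Cre and 77.1% in the double-labelled library. Retained intron isoforms of Kansl3 and Parp11 gained 69.9 and 64.1 points. Isoforms of Fto, Glyr1, Tomm20, Malat1 and Zfp263 were others among those that gained most, with 53.6 to 71.8 points. Those that lost most were protein-coding isoforms of Phf6, Zfp266, Naa40, Zfp263, Trmt1l, 2610008E11Rik, Xrcc2, Bora, Ncapd2 and Mapk6, led by ENSMUST00000078944 of Phf6, from 82.4% to 5.41% (a difference of -77.0 points, -84.2 to -62.2).

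Of 20 p53 targets with an isoform tested, 6 (30%) had a called isoform, near the 26.3% of all genes: Aen, Polk, Dcxr, Ccng1, Ckap2 and Ercc5. In Aen the noncoding ENSMUST00000172017 went from 20.5% to 75.4% of reads as the coding ENSMUST00000107421 went from 25.3% to 6.15%, with 67.6% for the first in Tut1f/f;Cre. In Polk the retained intron isoform ENSMUST00000222100 took 22.0% of reads in Tut1f/f, with 67.5% for Tut1f/f;Cre, 72.3% in the Trp53f/f;Cre-labelled library and 60.0% in the double-labelled library. The coding isoform of Polk fell from 70.0% to 23.1%. In Dcxr the coding ENSMUST00000026144 rose from 43.7% to 67.6% and, in the second contrast, from 26.7% to 44.2%.

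Isoforms called in the first comparison were set beside the second contrast. Of 1170 isoforms that gained share and could be tested in both, 26 also gained in the second (2.22%) and 104 lost share (8.89%). Of 1168 that lost share, 39 also lost (3.34%) and 101 gained (8.65%). Over all 15662 isoforms tested in both, 1.86% gained and 2.08% lost share in the second contrast. Among annotated ones, chosen after their values were seen, ENSMUST00000018186 of Cyb5r3, a cytochrome b5 reductase, fell from 72.5% to 35.1% and by 20.3 points in the second contrast. ENSMUST00000108785 of Mrpl55, a mitochondrial ribosomal protein, went from 38.7% to 8.21% and changed by -25.9 points in the second, while its isoform ENSMUST00000045697 rose by 25.9 and 21.7 points. ENSMUST00000109605 of Atf4, the factor of the integrated stress response, had -17.1 and -12.6 points.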

How the data were processed

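PCR-amplified cDNA of neural stem cells was sequenced on the Nanopore platform, with 1 library for each of 4 genotypes. The authors deposited 1 table of read counts per isoform, whole numbers and not normalized, with a column per library. The submitters' processing notes name mm10. The tool and filters behind this table are not given in the sources used here. Of 255164 entries, 46637 named a gene. The others held 17.2% of reads in Tut1f/f and 27.3% to 30.2% in the rest, and stayed out of library sizes. Symbols, positions (1-based) and transcript classes came from GENCODE M21 (GRCm38, the build of mm10), which held 14939 of 14949 genes.

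Counts were summed per gene and scaled with TMM in edgeR 4.0.16 (R 4.3.3), with factors from all 4 libraries between 0.937 and 1.03. Because no genotype had a replicate, no count model was fitted. Ratios carry exact conditional (Clopper-Pearson) 95% intervals, levels exact Poisson intervals, shares Wilson intervals and their differences Newcombe intervals, all of counting error only. The rules were tested on simulated data. Genes had 20 or more reads in each library and isoforms 10 or more over both. DESeq2 1.42.0 size factors, other scalings, filters and folds, and annotated transcripts alone were alternatives. Analyses used Python 3.11.15.

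Genes named are Trp53, Tut1, the listed p53 targets and regulators, up to 6 called genes of each other list by the bound of the interval nearest to no change, the 15 protein-coding genes outside the lists each way by that bound, the 15 each way called in both contrasts, and 10 annotated isoforms each way. The comparison, the lists and the rules were chosen with earlier results of these data known. Handling of reads that match several genes, or of strand, was not stated, so genes that overlap or share sequence can exchange reads. A few genes that these rules select are not reported here.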

Additional observations from a re-analysis of the deposited data

Results flagged for a closer look

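In 3 cases the 2 contrasts of libraries labelled by Trp53 status went opposite ways, with 1 library in each arm. The libraries of both contrasts also differed in floxed genes and culture, and those of the first in LNP cargo too. These differences were not tested. First, 58 genes were lower in the Trp53f/f;Cre-labelled library than in Tut1f/f and higher in the library labelled as deleted for both genes than in Tut1f/f;Cre. Next, 26 genes of cholesterol and fatty acid synthesis had a median log2 ratio of -0.62 in the first comparison and 0.75 in the second. Last, 14 genes of the integrated stress response had medians of -0.88 and 0.74. In Tut1f/f;Cre over Tut1f/f, where no Trp53 deletion is labelled, the medians of these lists were -1.13 and -0.97. Sex chromosome transcripts and the share of ribosomal RNA also differed across these libraries, and their part was not tested.

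Entries of the table that name no gene were outside every comparison above. They took 17.2% of reads in Tut1f/f and 28.9% in the Trp53f/f;Cre-labelled library, a signal above the control library in data not otherwise analysed.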

How the results depend on the processing

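No paired analysis was possible because each genotype had 1 library, and for the same reason none could be left out. The counts moved by over 1.5 times as follows. With 1 read in either library 1475 genes were higher and 1757 lower, 49 lower and 13 higher in both contrasts of Trp53 status, and 26 p53 targets lower and 1 higher. With 20 reads in either these were 1062, 1632, 38, 7, 23 and 1. With 50 reads in each, 334 genes were higher and 507 lower, 9 lower in both contrasts, and 7 p53 targets lower. At 1.5-fold 1409 were higher and 1744 lower, 56 lower and 22 higher in both, and 1 p53 target, Fbxw7, higher. At 3-fold 142 were higher and 317 lower, 1 lower in both, and 5 p53 targets lower. With annotated Ensembl transcripts alone 247 genes were higher, 7 lower in both, and 7 p53 targets lower. Against Tut1f/f;Cre, an alternative chosen after seeing the data, 38 were higher and 62 lower. Genes called in both contrasts were not counted there, since both would share that library. For isoforms, 50 gene reads gave 854 higher and 905 lower, with 158 retained intron isoforms higher. A difference of 20 points gave 597 and 658, with 132 retained intron isoforms higher and 15 lower, and a denominator of annotated transcripts alone 608 and 668. Fewer genes or isoforms were tested by construction with 50 reads in each library or 50 gene reads, and fewer reads were counted with annotated transcripts alone, while 3-fold and 20 points raised the threshold on the same tests. DESeq2 size factors gave 615 higher and 960 lower genes, and leaving rRNA genes out of the scaling, also chosen after seeing the data, 651 and 917. Of 203 named genes with a ratio, 15 moved under scaling by total gene reads and 1 without rRNA genes. With annotated transcripts alone fewer of them could be compared, where 17 moved and 115 stayed the same. None that was called reversed. Ratios of genes with few reads are limited by counting error.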
